A study of Petunia x hybrida with 8 samples.

Results

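In corolla of Petunia x hybrida, 3233 short and strongly enriched sites were recovered with the construct named 35S and had no counterpart in the list of the construct named pODO1. They were chosen by the deposited peak values: a fold enrichment of at least 5 and a width under 500 bases in the 35S list, no pODO1 peak overlapping by even 1 base, and a scaffold that carries at least 1 gene ID of the RNA table. They are 3233 of the 103755 peaks of the 35S list, and of 201764 peaks in both lists. They are called 35S-only sites here, which says only that no pODO1 peak was listed there.

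ODO1, or ODORANT1, belongs to the R2R3 class of MYB transcription factors and acts in petunia petals. It is known to activate genes of the shikimate pathway and of the steps that lead from phenylalanine towards the volatile benzenoids of the floral scent. MYB factors of this class bind short DNA elements in the promoters of their targets. In chromatin immunoprecipitation, DNA crosslinked to a tagged protein is pulled down and sequenced, and places where reads pile up above the local background are listed as peaks. The 35S promoter, from a plant virus, drives strong expression in most plant tissues, while pODO1 is read here as the promoter of ODO1 itself.

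The study comprised a 35S and a pODO1 immunoprecipitation with an anti-GFP antibody (1 library each) and 6 RNA libraries, 3 of odo1i and 3 of wild type, all from corolla. The labels give no plant line, age or stage, do not spell out the constructs, and do not say whether plants were pooled. The series describes ChIP-seq of ODO1, so the pulled-down protein is taken to be GFP-tagged ODO1, and odo1i is read as plants in which ODO1 was silenced. The files do not pair gene IDs with names, so ODO1 itself was not checked in odo1i, and marker genes of the corolla were not checked either. With 1 library per construct, no difference between constructs could be checked in replicates.

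Fold enrichment is the authors' value, taken at the summit of a peak relative to the peak caller's local background. Together with the deposited −log10 p it fixes how many reads were stacked at the summit, because MACS2 adds 1 to both reads and background and takes p from a Poisson distribution. A whole number of reads reproduced both values at all 103755 peaks of the 35S list and all 98009 peaks of the pODO1 list, with an error in −log10 p of at most 0.000101. Reads are the stacked, extended fragments that the caller counted.

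The 2 lists were called at unequal read depth. The lowest background, which MACS2 sets to the average over the genome, was 2.65 reads in the 35S list and 1.51 reads in the pODO1 list. At that background 18 stacked reads were needed to reach a fold enrichment of 5 in the 35S list, against 12 in the pODO1 list. The weakest peaks listed at the lowest background held 9 reads in the 35S list and 7 in the pODO1 list. A site with fewer reads than that in the pODO1 library is not in its list, so that absence from the list is not absence of reads. Local backgrounds above the lowest were multiples of 0.760 reads in 65.0% of such 35S peaks and of 0.407 reads in 56.7% of such pODO1 peaks, within 0.0005 reads. MACS2 scales a control library to the depth of the immunoprecipitation, and these steps are read as the worth of 1 control read.

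Most 35S-only sites were modest. Their fold enrichment had a median of 5.45, with quartiles of 5.21 and 5.79, and reached 14.2. The 5401 equally selected 35S peaks that did overlap a pODO1 peak had a median of 5.63, with quartiles of 5.22 and 6.19, and reached 17.8. A fold enrichment under 6 was found in 2582 of the 35S-only sites (79.9%) and in 3617 of the shared peaks (67.0%). At least 8-fold enrichment was found in 37 of the 35S-only sites and in 189 of the shared peaks, and at least 10-fold in 4 of the 35S-only sites and 38 of the shared peaks. These values chose the sites and are given as a description.

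In stacked reads the 35S-only sites had a median of 21, with quartiles of 19 and 25 and a highest value of 72. The shared peaks had a median of 24, with quartiles of 21 and 30 and a highest value of 128. Between 18 and 20 reads, the least that could pass, were held by 1381 of the 35S-only sites (42.7%) and by 1271 of the shared peaks (23.5%). The local background was at its lowest in 31.6% of the 35S-only sites and in 20.4% of the shared peaks. The 35S-only sites were also shorter, with a median of 118 bases against 156 bases in the shared peaks. In both sets the summit lay near the middle, at a median of 48.70% of the width in the 35S-only sites and 48.98% in the shared peaks.

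**Figure D1:**
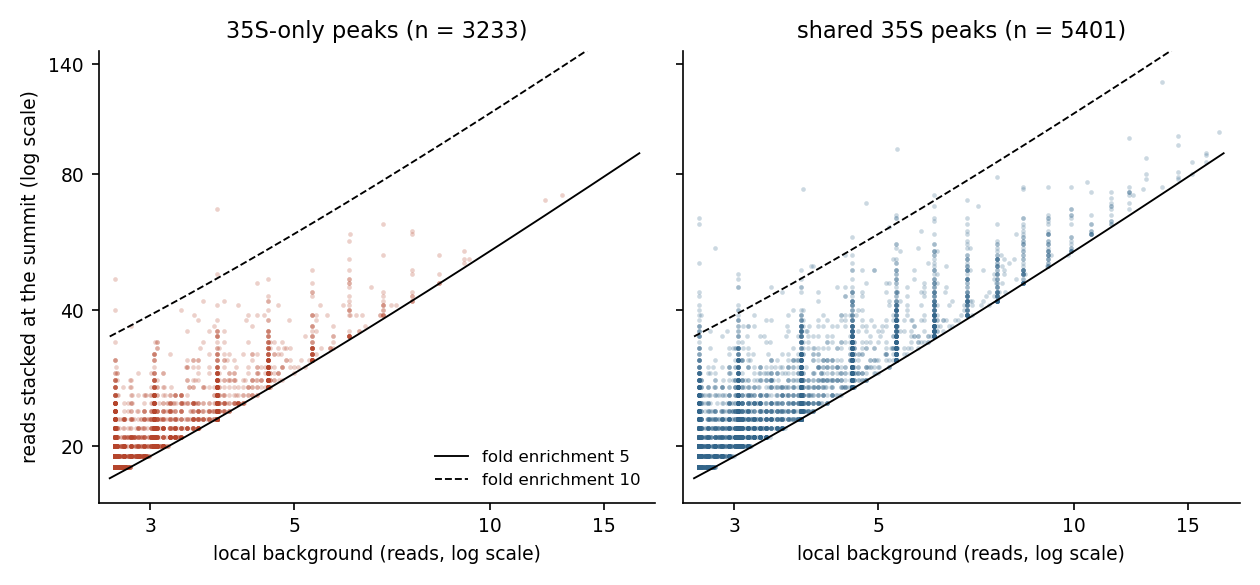
Reads stacked at the summit (vertical axis, log scale) against the local background in reads (horizontal axis, log scale), 1 point per peak, for 35S-only sites (left) and shared 35S peaks (right); lines mark fold enrichments of 5 and 10. The 35S-only sites crowd into the lower left corner, at a median of 21 reads, and 4 of them reach 10-fold, against 38 shared peaks.

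Of the 8634 strong narrow 35S peaks on gene-bearing scaffolds, 37.4% were 35S-only (95% exact binomial interval 36.4 to 38.5, which covers counting error only). The share fell with fold enrichment, with stacked reads and with width. It was 44.6% at a fold enrichment of 5 to under 5.5, 28.6% at 6 to under 7, 17.9% at 8 to under 10 and 9.52% at 10 or more. By stacked reads it was 52.1% at 18 to 20 reads and 4.76% above 60 reads. By width it was 63.5% at 100 bases or less and 12.9% above 300 bases.

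At like strength the share also moved with width among the weakest peaks, and with background. Among peaks of 18 to 20 reads, 67.3% of those up to 120 bases wide were 35S-only (exact interval 64.5 to 69.96), against 28.2% of those over 200 bases wide (24.5 to 32.1). Among peaks of at least 8-fold the same width classes had 15.7% (7.02 to 28.6) and 14.0% (7.66 to 22.7), and these intervals overlap. Among peaks enriched 5-fold to under 5.5-fold, 56.0% of those at the lowest background were 35S-only (53.0 to 59.0), against 15.2% of those at a background of at least 6 reads (11.2 to 19.8). At a given fold enrichment a higher background means more stacked reads, so the last split is also one by reads.

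**Figure D2:**
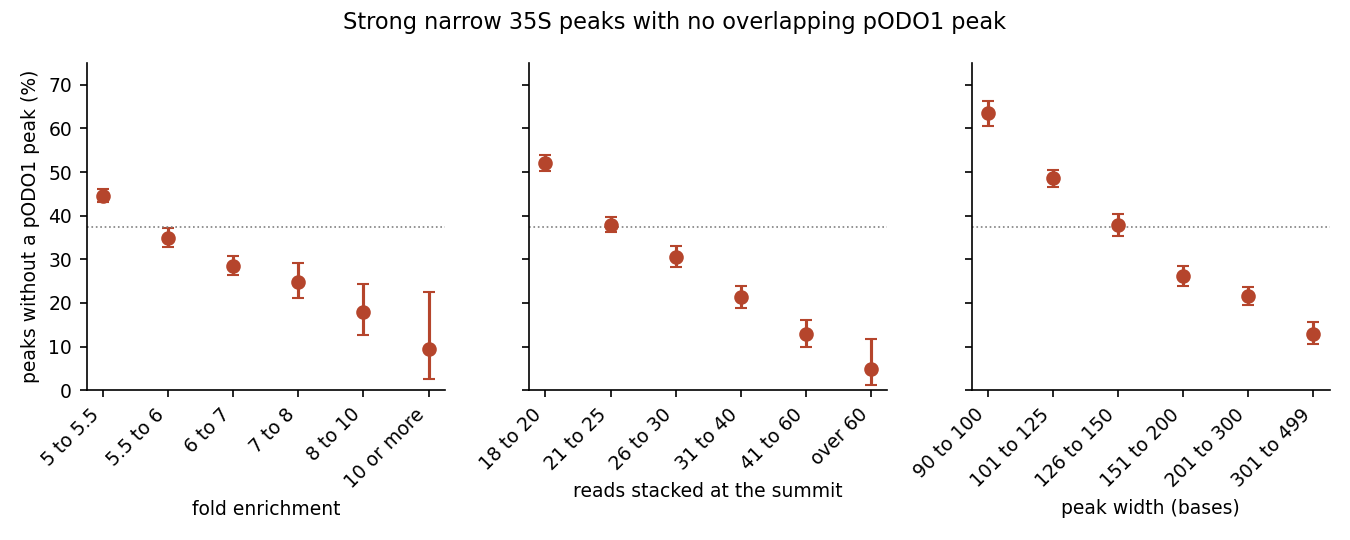
Percentage of strong narrow 35S peaks without an overlapping pODO1 peak (vertical axis) by fold enrichment, by reads stacked at the summit and by peak width in bases; bars are 95% exact binomial intervals and the dotted line is the 37.4% over all peaks. The percentage falls along all 3 axes, to 9.52%, 4.76% and 12.9% in the last classes.

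Shared peaks with few reads in the 35S list held fewer pODO1 reads than those with many, though not fewer than the median of 13 reads over all pODO1 peaks. Shared peaks with 18 to 20 reads in the 35S list had a median of 13 reads at the overlapping pODO1 peak, with quartiles of 11 and 15, and 17.2% of them had 10 pODO1 reads or fewer. Shared peaks with over 40 reads in the 35S list had a median of 35 pODO1 reads, and none of these 489 had 10 or fewer. All these peaks were shared ones, so the values include no 35S-only site. The part of read depth in the split into 35S-only and shared was not tested.

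Peaks found only with pODO1 were of like width. Of 21418 strong narrow pODO1 peaks, 8736 (40.8%, exact interval 40.1 to 41.4) had no 35S peak, and they too were short, with a median of 120 bases. They held a median of 15 reads, with quartiles of 13 and 17.

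The minimum of 5 lies on a steep slope. Because reads are whole, fold enrichments repeat: 85 of the 35S-only sites share the lowest value of 5.0005, which is 23 reads over a background of 3.80 reads. One of them spans positions 4552132 to 4552230 of Peaxi162Scf00000. Just outside, 3 peaks without a pODO1 peak share 4.9991, which is 20 reads over 3.20 reads, among them positions 392115 to 392227 of Peaxi162Scf00044. Within 0.1 of the minimum lie 339 sites inside and 1180 peaks outside. At the lowest background 18 reads give at least 5.20-fold, and 1 read fewer gives 4.94-fold at most. Peaks at that background can thus be counted only outside, so these counts are not on the same scale.

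The strongest 35S-only site, at positions 73472 to 73687 of Peaxi162Scf00158, was enriched 14.2-fold, with 67 reads over a background of 3.80 reads. The nearest pODO1 peak lay 384 bases away and was enriched 3.75-fold. A 704-base 35S peak of 6.13-fold lay 128 bases to its side, so that this site belongs to a broader stretch of 35S signal. Next came 1533417 to 1533624 of Peaxi162Scf00047, with 13.2-fold enrichment and 47 reads. It lay 256 bases from a 35S peak of 17.3-fold and 289 bases from a pODO1 peak of 4.78-fold. The site at 1413585 to 1413706 of Peaxi162Scf00203 was enriched 11.2-fold with 40 reads, and the nearest pODO1 peak was 1004 bases away.

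Another 3 of the 10 strongest lay farther from any pODO1 peak than the rest of the 10 did. The site at 1660827 to 1661107 of Peaxi162Scf00152 was enriched 10.2-fold with 48 reads, 16697 bases from the nearest pODO1 peak and 22755 bases from the next 35S peak. The site at 28297 to 28419 of Peaxi162Scf00089 was enriched 9.99-fold with 37 reads. Its nearest pODO1 peak was 58689 bases away, and a weak 35S peak of 3.29-fold lay at 808 bases. The site at 537185 to 537332 of Peaxi162Scf00264, enriched 9.42-fold with 40 reads, lay 7462 bases from a pODO1 peak and 23276 bases from another 35S peak.

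The other 4 of the 10 strongest each had another 35S peak within 1021 bases. Peaxi162Scf00016 carried 2 of them, at 2054226 to 2054537 (9.30-fold, 42 reads) and 2056052 to 2056219 (8.89-fold, 39 reads). The same pODO1 peak of 7.44-fold was the nearest to both, at 184 and 1093 bases. The site at 12779 to 13006 of Peaxi162Scf00450 (9.60-fold, 34 reads) had another 35S peak at 253 bases, and that at 579906 to 580097 of Peaxi162Scf00399 (8.78-fold, 42 reads) had one at 146 bases. Over all 35S-only sites 623 (19.3%) had another 35S peak within 500 bases, against 24.5% of the shared peaks. Among the 37 sites of at least 8-fold it was 10 (27.0%, exact interval 13.8 to 44.1), against 18.63% (17.1 to 20.2) of those under 6-fold, and these intervals overlap.

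Distance to pODO1 peaks did not enter the choice beyond the overlap itself. Gaps and their percentages cover 3220 of the 35S-only sites. The other 13 lie on scaffolds that hold no pODO1 peak. The gap from a 35S-only site to the nearest pODO1 peak had a median of 2998 bases (95% interval of the median 2779 to 3213), with quartiles of 936 and 8583 bases. A pODO1 peak lay within 100 bases of 68 sites (2.11%), within 500 bases of 475 (14.8%) and within 1000 bases of 849 (26.4%). Shared peaks were closer to their next, non-overlapping pODO1 peak, with a median of 1797 bases and 36.7% within 1000 bases. In the mirror set the pODO1-only peaks lay a median of 2980 bases from the nearest 35S peak, with 25.9% within 1000 bases. These distances are descriptions, since sites on 1 scaffold share their surroundings.

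The pODO1 peaks next to the 35S-only sites were ordinary ones. Their fold enrichment had a median of 4.33, against 4.28 over all pODO1 peaks on gene-bearing scaffolds, and 26.2% of them reached 5-fold, against 24.3% of all. Where the pODO1 peak was within 500 bases, 53.5% of these 475 neighbours overlapped some other 35S peak, against 43.3% of all pODO1 peaks on gene-bearing scaffolds.

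**Figure D3:**
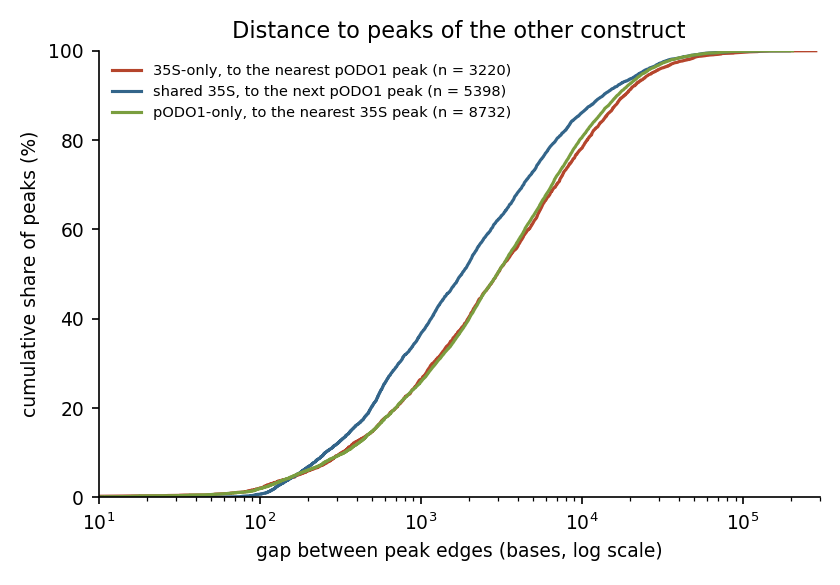
Cumulative percentage of peaks (vertical axis) by the gap in bases to a peak of the other construct (horizontal axis, log scale), for 35S-only sites, shared 35S peaks (to the next pODO1 peak that does not overlap) and pODO1-only peaks. The curves of the 35S-only sites and the pODO1-only peaks nearly coincide, with medians of 2998 and 2980 bases, and the shared peaks lie to their left at 1797 bases.

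At the far end, 704 sites (21.9% of the 3220) lay over 10000 bases from any pODO1 peak, and 50 of these over 50000 bases. Another 13 sites were on scaffolds that hold no pODO1 peak. The farthest, at 44459 to 44599 of Peaxi162Scf00245, was 283498 bases from the nearest pODO1 peak and enriched 5.45-fold. The next was at 228463 to 228570 of Peaxi162Scf01061, at 146189 bases and 5.89-fold, and it was the only 35S peak beyond the last pODO1 peak of that scaffold. The other 3 of the 5 farthest lay in long stretches without a pODO1 peak. On Peaxi162Scf00002 the sites at 1087959 to 1088060 and 1574578 to 1574669, both 5.21-fold, lay in stretches of 309.5 and 399.3 kb, which held 5 and 3 35S peaks. On Peaxi162Scf00003 the site at 5290287 to 5290384, 5.76-fold, lay in a stretch of 301.2 kb with 3 35S peaks. Few 35S peaks were thus found in these stretches either. Counting only sites with a pODO1 peak and another 35S peak on their scaffold, 356 (11.01% of all 3233) had no peak of either list within 10000 bases. Their median of 21 reads was that of all 35S-only sites.

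Most sites had no other 35S-only site close by. Chaining sites with gaps of at most 1000 bases left 3145 single sites, 40 pairs, 1 chain of 3 and 1 chain of 5, so that 88 sites (2.72%) had another within that gap. Among the shared peaks 5.61% had another shared peak that near, and among the pODO1-only peaks 2.53% had another pODO1-only peak. The sets differ in density, at 2.57 to 3.04 35S-only sites against 4.48 to 4.88 shared and 7.38 to 7.58 pODO1-only peaks per Mb on scaffolds of 100000 bases or more by the last peak end, so these shares are not on 1 scale. A 35S peak of 500 bases or more lay within 1000 bases of 27 of the 35S-only sites (0.835%) and of 44 of the shared peaks (0.815%).

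The chain of 5, singled out after its values were seen, ran over 3159 bases from 360669 to 363827 of Peaxi162Scf00889, a scaffold with 12 gene IDs. Its sites were enriched 6.89-, 5.09-, 6.09-, 5.396- and 5.08-fold, with 53, 33, 33, 70 and 27 stacked reads. Their backgrounds of 4.51 to 12.2 reads were all above the median of 3.03 reads over 35S-only sites. Within 5000 bases of the chain there were 9 35S peaks, and 1 pODO1 peak of 3.65-fold at 461 bases from the first site. The chain of 3, also singled out afterwards, covered 1236 bases from 12779 to 14014 of Peaxi162Scf00450, with 9.60-, 5.94- and 8.17-fold enrichment and 34, 23 and 32 reads. The nearest pODO1 peaks were 2659 to 3667 bases away.

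The 3233 sites lay on 1036 of the 1961 scaffolds with a gene ID. A single site was found on 335 scaffolds, 2 to 4 on 474, 5 to 9 on 202 and 10 or more on 25. The most were 32 on Peaxi162Scf00000, followed by 18 on Peaxi162Scf00008, 17 on Peaxi162Scf00039, 16 on Peaxi162Scf00006 and 13 on each of several tied scaffolds, Peaxi162Scf00001 and Peaxi162Scf00049 among them. On scaffolds of 100000 bases or more, by the last peak end, there were 2.57 to 3.04 sites per Mb in each class of length, while the shorter ones held 52 sites, or 5.91 per Mb. The same short scaffolds held 6.03 shared and 8.87 pODO1-only peaks per Mb. Length by the last peak end cannot exceed the true length, and scaffolds without a peak are left out. Both can raise densities, above all on short scaffolds, and how far they do was not tested.

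On most scaffolds with many strong narrow 35S peaks, the share that was 35S-only could not be told apart from the overall share. Over the 68 scaffolds with at least 20 such peaks the share had a median of 34.8%, with quartiles of 28.6% and 39.1%. The exact interval held the overall 37.4% on 65 of the 68, lay above it on 1 and below it on 2. These intervals are wide, so they show little about differences between scaffolds. By the last peak end, scaffolds under 100000 bases had a share of 49.5%, against 36.4% to 38.4% in the classes of longer ones. Among the 68 scaffolds with at least 20 strong narrow 35S peaks, the highest share was on Peaxi162Scf00049. There 13 of 21 peaks were 35S-only (61.9%, 38.4 to 81.9). The lowest among the 68 was on Peaxi162Scf00201, with 2 of 21 (9.52%, 1.17 to 30.4). On 118 scaffolds every strong narrow 35S peak was 35S-only, and these held 180 sites.

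**Figure D4:**
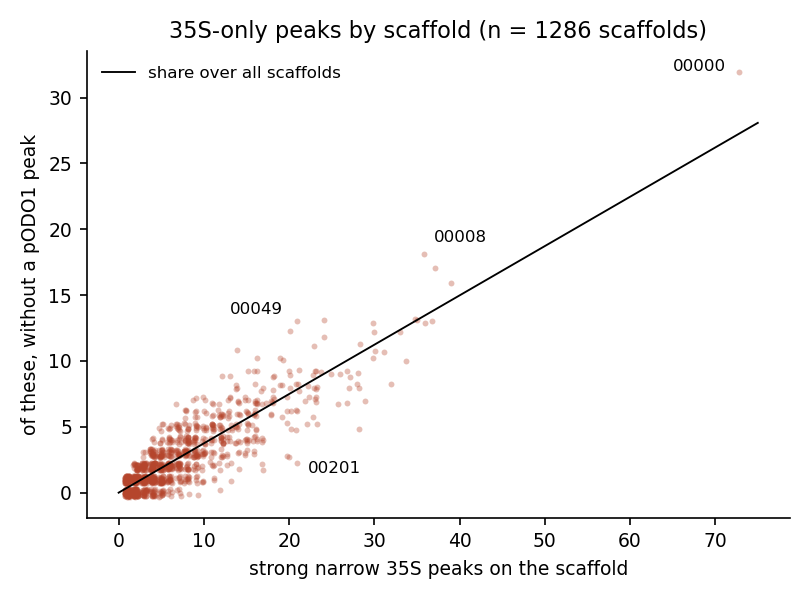
35S-only sites (vertical axis) against all strong narrow 35S peaks (horizontal axis) per scaffold, 1 slightly shifted point for each scaffold that holds such a peak, with a line at the overall 37.4%; 4 scaffolds are marked by the digits of their names. Points follow the line, with Peaxi162Scf00000 at 32 of 73 and Peaxi162Scf00049 at 13 of 21 above it and Peaxi162Scf00201 at 2 of 21 below it.

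The RNA libraries, which played no part in choosing the sites beyond the gene IDs, held 18612881 to 20591367 counts each. Levels are given in CPM, counts relative to the TMM-scaled library size, and genes were called changed at a Benjamini-Hochberg adjusted p under 0.05 in edgeR's quasi-likelihood test. Gene positions were not used here, so a gene is tied to a site only by a common scaffold, and the widest of these holds peaks up to position 8559951. The labels do not tie the replicates to different plants, and p-values reflect only how much these 6 libraries vary, a variation that may be technical.

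Genes on scaffolds with a 35S-only site changed in odo1i about as often as genes at large. Among 15639 tested genes on these scaffolds 98 were called (0.627%), against 13 of 2028 on scaffolds without a site (0.641%) and 111 of 17667 over all tested genes (0.628%). Of the 98, 62 were higher in odo1i (0.396% of the tested genes there, against 0.374% of all) and 36 were lower (0.230%, against 0.255% of all). On scaffolds without a site 4 were higher (0.197%) and 9 lower (0.444%), which are few genes, and the difference in direction was not tested. The median log2 fold change of odo1i over wild type was -0.03 on these scaffolds and -0.03 over all tested genes. The median level was 14.2 CPM in odo1i and 14.8 CPM in wild type on these scaffolds, against 14.0 CPM and 14.6 CPM over all tested genes. Scaffolds with 10 or more sites held 6 called genes among 1063 tested (0.564%), and scaffolds with a site but at most 5 gene IDs held 2 among 199 (1.01%).

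The count of 98 depended on every library and on the model. These scaffolds held 15639 of the 17667 tested genes, so their share lies near that of all tested genes by construction. Leaving out odo1i replicate 1, 2 or 4 gave 4, 0 or 9 called genes on these scaffolds, of 4, 0 and 10 over all tested genes. Leaving out wild type replicate 1, 2 or 4 gave 3, 19 or 393, of 3, 21 and 435 (for the 0, edgeR had 1497 at an unadjusted p under 0.05). With the replicate number as a block the count was 173 (1.11%, against 1.10% of all tested genes), with 83 of the 98 among them. DESeq2 called 922 (4.42%, against 4.41% of all). The split by direction, 62 higher and 36 lower in the main fit, moved with the model too. It was 94 higher and 79 lower with the block, and 429 higher and 493 lower with DESeq2. RLE size factors gave 62 and 37, and no filter on low counts gave 102 and 59.

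Scaffolds with a called gene held 379 of the 35S-only sites (11.7%, exact interval 10.6 to 12.9). They held 10.4% of the shared peaks (9.62 to 11.3) and 10.4% of all 35S peaks on gene-bearing scaffolds. Scaffolds with a highly expressed gene, one with a mean of 1000 CPM or more before TMM scaling, held 307 of the 35S-only sites (9.50%, 8.51 to 10.6), against 8.998% of the shared peaks (8.25 to 9.79), 8.54% of all 35S peaks on gene-bearing scaffolds (8.36 to 8.72) and 7.51% of the pODO1-only peaks (6.97 to 8.08). Sites on 1 scaffold are not independent, so these intervals are too narrow. The scaffolds with a called gene were set by the 111 calls of the main fit, which ran from 0 to 435 with 1 library left out. Their shares are given for the main fit only.

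The called genes with the largest rise on scaffolds with a 35S-only site were Peaxi162Scf00408g00225 and Peaxi162Scf00049g02410. Peaxi162Scf00408g00225 had 14.2, 20.98 and 20.6 CPM in the odo1i libraries, against 0.340, 1.86 and 0.686 CPM in wild type. That the groups do not overlap was a condition for naming a gene, and 22.46% of all tested genes met it. Wild type replicate 2 is the highest of its group. Its log2 fold change was 4.28 ± 0.60 (SE, edgeR adjusted p = 0.0456). Its scaffold carried 2 35S-only sites, at 24719 to 24892 (5.13-fold) and 805916 to 806024 (7.37-fold), beside 6 shared and 4 pODO1-only peaks. It held 4 called genes among 34 tested, this one included.

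Peaxi162Scf00049g02410 had 195.1, 355.4 and 394.2 CPM in odo1i, against 15.8, 14.9 and 20.3 CPM in wild type. Each odo1i library was far above each wild type library, with a log2 fold change of 4.21 ± 0.31 (SE, edgeR adjusted p = 0.00747). It is the only called gene among 20 tested on Peaxi162Scf00049, the scaffold with the highest share of 35S-only sites among those with at least 20 strong narrow 35S peaks. The 13 sites there were enriched 5.21- to 7.13-fold and lay between positions 4266 and 2437034, with gaps to the nearest pODO1 peak of 112 to 18573 bases.

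The called genes with the largest fall were Peaxi162Scf00100g01521 and Peaxi162Scf00132g00239. Peaxi162Scf00100g01521 had 0.425, 0.300 and 0.0975 CPM in odo1i, against 44.7, 83.8 and 42.7 CPM in wild type. It was nearly silent in all odo1i libraries, with a log2 fold change of -7.68 ± 0.52 (SE, edgeR adjusted p = 0.00747). Its scaffold carried 3 35S-only sites, at 207416 to 207601, 445887 to 445985 and 968641 to 968741, all under 5.5-fold, and it was the only called gene among 24 tested there.

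Peaxi162Scf00132g00239 had 0, 0 and 1 count in the odo1i libraries, against 87, 95 and 85 counts in wild type, or 4.64 ± 0.495 CPM (SD, n = 3). The ratio of wild type over odo1i was 274 (exact interval 48.8 to 10866, counting error only), and edgeR's adjusted p was 0.0209. Its scaffold carried 3 35S-only sites, enriched 5.21- to 5.76-fold, and it was the only called gene among 37 tested. All 4 genes lost their call without odo1i replicate 2, and each also without 1 to 4 other libraries, with edgeR adjusted p up to 0.240 over all alternatives.

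**Figure D5:**
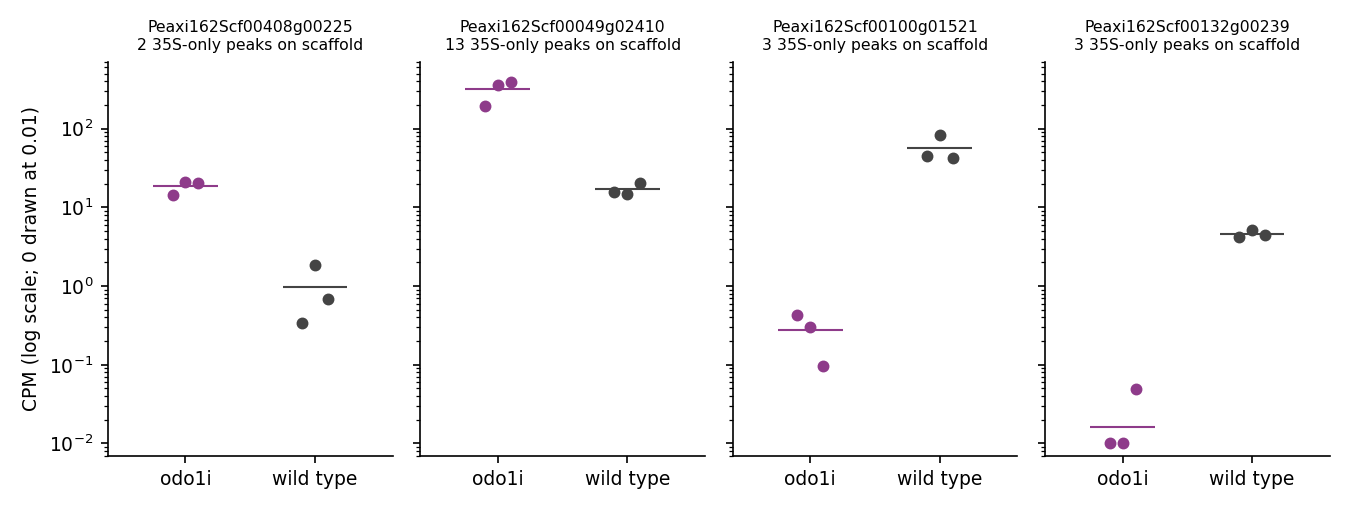
CPM (log scale, 0 drawn at 0.01) of the 4 genes in the odo1i libraries (left in each panel) and the wild type libraries (right), 1 point per library with the group mean as a line, and the number of 35S-only sites on the scaffold above. The groups do not overlap in any panel, which was a condition for naming the genes. Both genes at left are higher in odo1i and both at right are higher in wild type.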

How the data were processed

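Peak lists: the authors deposited 1 list per construct in MACS2's 10-column layout, with a fold ratio, a −log10 p, a −log10 q, a score (10 times the −log10 q) and a summit offset per peak. RNA: the authors deposited raw read counts for 35812 gene IDs. Tools named without versions in the submitters' processing notes are MACS2, Bowtie2, cutadapt, HTSeq, TopHat2 and DESeq2. Not given in the sources used here are the caller settings, the control, the genome build and the use of strand. Without strand, overlapping, antisense or near-identical genes cannot be told apart. No genome or annotation was used, so sequences, promoters and distances to genes are not analysed here. Scaffold names are those of the files, and positions count from 1.

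Overlaps, gaps between peak edges, stacked reads and exact binomial intervals (95%) were computed with Python 3.11.15, NumPy 2.4.6, pandas 2.3.3 and SciPy 1.17.1, and plots with matplotlib 3.10.9. Stacked reads are whole numbers within 0.001 in −log10 p. The last peak end in either list stands for the length of a scaffold. The gene tests used edgeR 4.0.16 under R 4.3.3 (filterByExpr, TMM, two-sided quasi-likelihood test, Benjamini-Hochberg over 17667 genes), with DESeq2 1.42.0 as an alternative. Both steps were tested on simulated data. Deviations from the group mean correlated between same-numbered libraries of odo1i and wild type at 0.222, 0.109 and 0.120 on the log2(CPM + 1) scale. All were above the required 0.1, the second by little. The main values come from the fit without the block. Blocked values are given beside the main count and for the 4 named genes.

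The sites, lists and rules were chosen with earlier results of these data known. Named are the 10 sites of highest fold enrichment, the 5 farthest from a pODO1 peak, examples at the minimum, the 5 scaffolds with most sites (the last from a tie), and the 2 largest rises and falls among called genes with a mean of 1 CPM or more and groups that do not overlap.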

Additional observations from a re-analysis of the deposited data

How the results depend on the processing

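The number of 35S-only sites rests on the minimum of fold enrichment. It was 16876 (52.2% of strong narrow 35S peaks) with a minimum of 4 and 651 (26.7%) with a minimum of 6. Counting a pODO1 peak within 1000 bases as shared left 2384 sites (27.6%), using only pODO1 peaks of at least 4-fold gave 3808 (44.1%), and taking all scaffolds gave 3886 (36.4%). A gap of 100 bases, sharing 0.5 of the narrower peak as the condition, and no limit on width left 3165 to 3288 sites and 36.7% to 38.1%. A −log10 q of at least 5 removed no peak, since the lowest was 6.43, and so tested nothing. The median gap to a pODO1 peak was 2720 bases with a minimum of 4 and 5455 bases to pODO1 peaks of at least 4-fold, and 3000 to 3141 bases under the other alternatives.

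The number of called genes on scaffolds with a site was 161 without a filter on low counts (0.771%, against 0.757% of all tested genes). It was 922 with DESeq2 and 173 with the replicate block. Scaffolds with a site of at least 6-fold held 62 (0.656%), and those with at most 5 gene IDs held 2 (1.01%), where fewer genes are tested. Over all tested genes the share was 0.628%. Leaving out 1 library gave 0 to 393, of 0 to 435 over all tested genes. RLE size factors gave 99, with the same 98 among them. The 4 named genes kept their direction under all 10 alternatives each and lost their call under 4, 2, 2 and 5 of them, always with 1 library left out. With the replicate block their edgeR adjusted p was 0.0248, 0.0136, 0.0136 and 0.0309, in the same order. The causes were not tested. The depth of the pODO1 list limits what its silence at a site can show.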
